A study of Mus musculus with 8 samples.

Results

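The PEA3 transcription factors Etv1, Etv4 and Etv5 and 7 intracellular inhibitors of fibroblast growth factor (FGF) signalling, Spry1, Spry2, Spry4, Spred1, Spred2, Dusp4 and Dusp6, were followed across embryonic mouse lung. They were chosen by name, as readouts of FGF signalling through the ERK kinase, with earlier results of these data known. Each had 1 record, so 10 of the 24487 records in the deposited tables were members. In the developing lung, FGF10 from the mesenchyme activates the receptor FGFR2 on the epithelial tips, and the RAS-ERK cascade carries the signal to the nucleus. There ERK activity raises the PEA3 factors, which act in branching, and also the Sprouty, Spred and DUSP proteins, which damp the same cascade. The group is therefore often read as an output of FGF signalling.

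The 8 libraries came from lung of strain C57BL/6, and measured genes in FPKM, fragments scaled by transcript length and by the mapped fragments of the library. They fell into 6 groups. At embryonic day 14 (E14) there was 1 library of translating ribosome affinity purification (TRAP) and 1 of whole lung, both wild type. At E16 there were 2 TRAP libraries of the Sox9 mutant and 2 of the wild type. At E17 there was again 1 TRAP and 1 whole lung library, both wild type. TRAP pulls down ribosomes of labelled cells with their mRNA, here through the ribosomal protein L10 after induction with tamoxifen, so the mutant and all other TRAP samples share that labelling. Sox9 encodes a transcription factor of the epithelial tips, and the titles point to Sox9 progenitors as the labelled cells. The labels name neither the driver of the labelling nor the part of Sox9 that the mutation removes, and they do not say whether libraries came from separate or pooled embryos. P-values therefore measure the spread between these libraries, which may be technical. E13 also appears in the titles at E16, with no explanation, and the design text calls the E14 comparison sample a supernatant where its label says whole lung.

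Sox9 itself stood at 12.8 and 11.03 FPKM in the mutant libraries and at 35.9 and 36.4 FPKM in the wild type, a log2 difference of -1.53 ± 0.08 (SE, limma adjusted p = 0.000153). With all libraries set to one total FPKM the difference was -1.09 and did not pass (adjusted p = 0.858). Between 9783768 and 21500523 fragments lay behind each library, inferred from the deposited confidence bounds. The members rested on 39.9 (Etv1) to 20869.9 (Etv5) fragments per library, so that counting error was widest for Etv1 and Spry4. All 8 listed markers of lung epithelium were higher in TRAP, where they summed to 1853 FPKM at E14 and 1916 FPKM at E17, against 419 and 690 FPKM in whole lung. All 8 mesenchyme markers were lower in TRAP, with sums of 86.4 and 105 FPKM against 1059 and 1333 FPKM in whole lung, and none of these markers was at 0. All tested markers of endothelium (6), smooth muscle (5), leukocytes (5) and erythroid cells (5) were lower in TRAP too. Of 4 mesothelium markers 3 were lower and Msln did not pass, nor did the 1 neuroendocrine or neural marker tested. Some of these markers, such as Csf1r and Slc4a1, averaged under 1 FPKM in TRAP. They were tested only because whole lung was high, so they had to differ. In these bulk samples fewer cells of a type and less RNA per cell cannot be told apart.

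The members whose level moved in the mutant are the ones shown by sequence. Of the 4 members that passed the mutant test, 3 had a RefSeq promoter entry, and the 250 bases before the annotated start are given below from the RefSeq table of build GRCm38.p6, each read 5′ to 3′ on the strand of its gene. The Etv5 window is chr16:22439571-22439820 on the minus strand and ends where the gene's record begins. The Spry1 window is chr3:37639697-37639946 and the Dusp6 window chr10:99262981-99263230, both on the plus strand. Capitals mark the SOX core letters AACAAT, read on either strand.
Etv5: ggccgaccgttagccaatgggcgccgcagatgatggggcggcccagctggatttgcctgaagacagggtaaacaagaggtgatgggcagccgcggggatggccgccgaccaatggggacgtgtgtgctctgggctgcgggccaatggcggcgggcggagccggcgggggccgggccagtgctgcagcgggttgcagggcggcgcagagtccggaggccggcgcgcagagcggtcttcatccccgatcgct
Spry1: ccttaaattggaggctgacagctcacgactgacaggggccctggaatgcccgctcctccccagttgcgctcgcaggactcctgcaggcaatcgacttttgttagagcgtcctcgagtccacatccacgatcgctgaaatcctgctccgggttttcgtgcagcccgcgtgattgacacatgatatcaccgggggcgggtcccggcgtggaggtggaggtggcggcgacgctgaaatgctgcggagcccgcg
Dusp6: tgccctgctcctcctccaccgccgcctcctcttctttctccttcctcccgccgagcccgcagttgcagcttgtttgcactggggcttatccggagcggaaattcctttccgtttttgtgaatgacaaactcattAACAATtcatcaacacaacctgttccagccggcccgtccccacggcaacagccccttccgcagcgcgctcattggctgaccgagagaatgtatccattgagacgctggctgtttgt
The Etv5 window held 71.2% G or C and 27 CpG, the Spry1 window 62.4% and 23 CpG, and the Dusp6 window 56.4% and 16 CpG. The search covered 9 windows of the 7 members with an entry, on both strands, for the SOX core AACAAT and for the ETS core CCGGAA, the letters that PEA3 factors and their ETS relatives tend to recognise. Where these motifs meet they can share no more than AA, or TT on the other strand. The SOX core stood in 2 of the 9 windows, that of Dusp6 and a second Etv1 window, and in 9.42% of all 32851 windows of this length. The full letters CCGGAA stood in 0 of the 9 windows and in 12.03% of all windows. Shorter or variant ETS letters were not searched for, so the windows may hold those. A match describes letters, not a bound site.

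In the Sox9 mutant the PEA3 pair parted: Etv5 fell 14.7-fold while Etv4 rose 2.03-fold, and of the inhibitors Spry1 rose 1.94-fold and Dusp6 1.44-fold, on the scale of FPKM + 1. Spry2, Spred1, Spred2 and Dusp4 did not pass the test. Etv1 and Spry4 averaged under 1 FPKM over the 4 E16 libraries and were not tested. Thus 4 of the 8 members tested passed, against 31.6% of the 11872 records tested. Of the members 3 were higher and 1 lower, against 17.4% and 14.3% of records. The median log2 difference of the 8 was 0.33, and that of all records was 0.01.

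**Figure D1:**
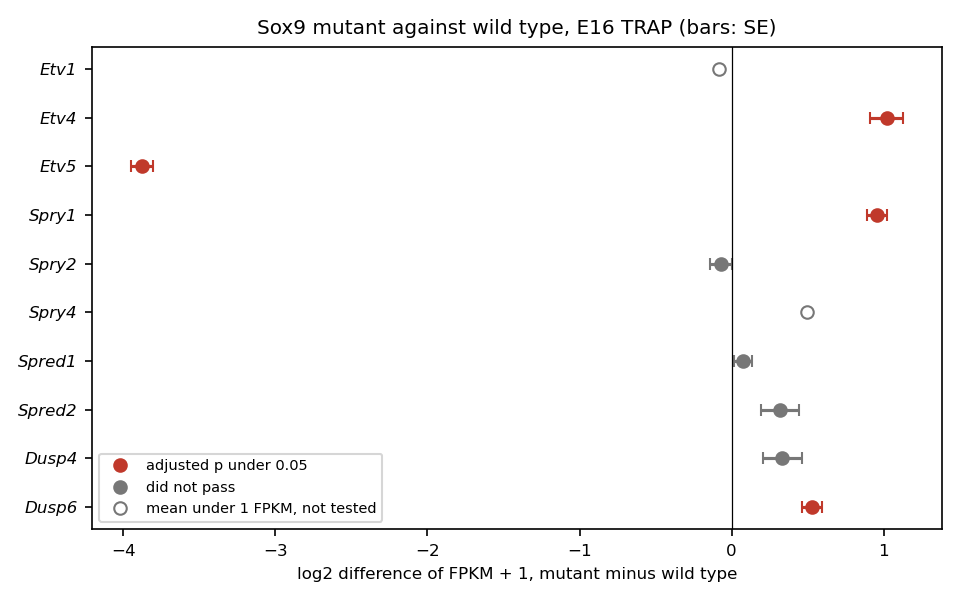
Log2 difference of FPKM + 1 (x axis), Sox9 mutant minus wild type at E16, for each gene (rows), with SE bars from limma. Filled red points passed at an adjusted p under 0.05, grey points did not, and open points were not tested. Etv5 lies at -3.88 and Etv4 at 1.02, on opposite sides of 0.

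Etv5, on chromosome 16 (mm10, 22381313 to 22439570), encodes a PEA3 factor of the distal epithelium. It stood at 13.8 and 15.8 FPKM in the mutant libraries and at 237 and 225 FPKM in the wild type. The groups were far apart, with means of 14.8 ± 1.38 FPKM in the mutant and 231 ± 8.50 FPKM in the wild type (SD, n = 2 each). The log2 difference was -3.88 ± 0.07 (SE), with a limma adjusted p of 2.0e-05. By level, Etv5 ranked 5390 and 5043 among the 24487 records of the mutant libraries, and 435 and 466 in the wild type.

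Etv4, on chromosome 11 (101769742 to 101785310), encodes the PEA3 factor that acts beside Etv5 in lung branching. It stood at 33.4 and 32.1 FPKM in the mutant libraries and at 17.6 and 13.9 FPKM in the wild type. Both mutant values lay above both wild-type values, with means of 32.7 ± 0.980 FPKM in the mutant and 15.7 ± 2.60 FPKM in the wild type (SD, n = 2 each). The log2 difference was 1.02 ± 0.11 (SE, limma adjusted p = 0.00155).

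The ratio of Etv5 to Etv4 was 0.414 and 0.492 in the mutant libraries, against 13.5 and 16.2 in the wild type. Etv4 was thus the more abundant of the pair in both mutant libraries, and Etv5 in all 6 wild-type libraries. On the scale of log2(FPKM + 1) the ratio averaged -1.10 ± 0.17 in the mutant and 3.80 ± 0.17 in the wild type (SD, 2 libraries each). The difference was -4.90, or 29.8-fold lower. A two-sided exact permutation test gave p = 0.333, the smallest p that 2 against 2 libraries allow. Etv4 gained less than Etv5 lost: the 3 PEA3 genes summed to 47.8 and 48.4 FPKM in the mutant, against 255 and 239.8 FPKM in the wild type. Etv5 made up 28.9% and 32.6% of that sum in the mutant and 92.9% and 93.9% in the wild type.

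Etv1, the third PEA3 gene (chromosome 12, 38780258 to 38868215), stood at 0.519 and 0.552 FPKM in the mutant and at 0.492 and 0.779 FPKM in the wild type, and the groups overlapped. Without the filter on low values its log2 difference was -0.09 (limma adjusted p = 0.884).

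**Figure D2:**
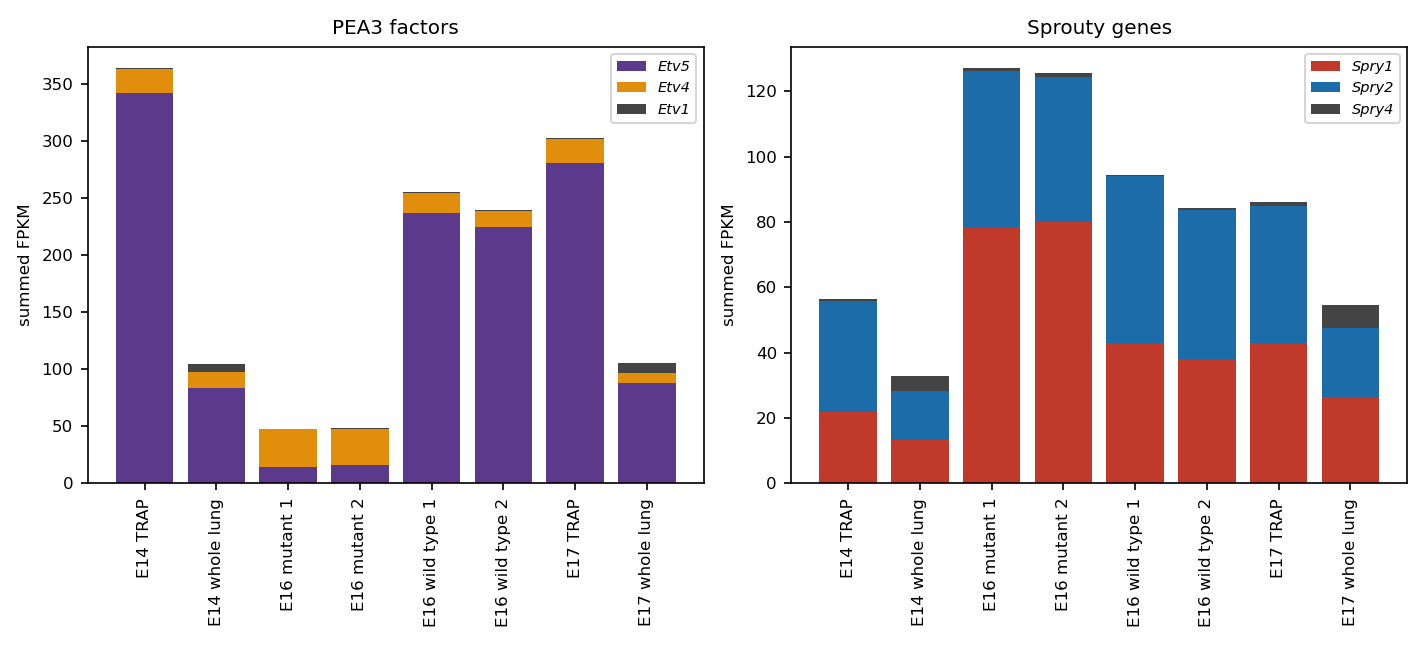
Summed FPKM (y axis, linear) of the PEA3 genes (left) and of the Sprouty genes (right) in each of the 8 libraries, stacked by gene. The PEA3 sum is 47.8 and 48.4 FPKM in the mutant libraries and mostly Etv4, while in the other libraries it is mostly Etv5. The Sprouty sum is 127 and 126 FPKM in the mutant libraries, with more Spry1 than Spry2.

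Among the Sproutys, which block the cascade between receptor and RAF, Spry1 passed the mutant test, and whether its change differs from that of Spry2 was not tested. Spry1 (chromosome 3, 37639950 to 37644599) stood at 78.5 and 79.9 FPKM in the mutant and at 42.9 and 38.0 FPKM in the wild type. The groups did not overlap, and the log2 difference was 0.96 ± 0.07 (SE, limma adjusted p = 0.000392). Spry2 (chromosome 14, 105891947 to 105896819) stood at 47.6 and 44.4 FPKM in the mutant and at 51.1 and 45.7 FPKM in the wild type. Its groups overlapped, with a log2 difference of -0.07 ± 0.07 (SE, adjusted p = 0.486). Spry4 (chromosome 18, 38586265 to 38601268) stood at 1.09 and 1.22 FPKM in the mutant and at 0.491 and 0.563 FPKM in the wild type. Its groups did not overlap, but without the filter its log2 difference of 0.49 had a limma adjusted p of 0.0593. The 3 Sproutys summed to 127 and 126 FPKM in the mutant, against 94.5 and 84.3 FPKM in the wild type. Spry1 held 61.7% and 63.6% of that sum in the mutant and 45.4% and 45.1% in the wild type.

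The Spred proteins are membrane-bound inhibitors that act on RAS and RAF. Spred1 (chromosome 2, 117121071 to 117182277) stood at 32.4 and 30.1 FPKM in the mutant and at 30.2 and 29.1 FPKM in the wild type, and the values overlapped (log2 difference 0.07 ± 0.06 (SE), adjusted p = 0.384). Spred2 (chromosome 11, 19924442 to 20022597) stood at 32.7 and 30.5 FPKM in the mutant and at 28.8 and 22.0 FPKM in the wild type. Its mutant values lay above both wild-type values, which were themselves well apart (log2 difference 0.32 ± 0.13 (SE), adjusted p = 0.110). With 1 library left out, which leaves a lone library whose spread is taken from the other group, the log2 difference ran between 0.13 without wild-type replicate 2 (adjusted p = 0.354) and 0.51 without wild-type replicate 1 (adjusted p = 0.0185). Only the last of these passed.

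The DUSP proteins are phosphatases that take phosphate off ERK, Dusp6 in the cytoplasm and Dusp4 in the nucleus. Dusp6 (chromosome 10, 99263231 to 99267489) stood at 20.0 and 20.4 FPKM in the mutant and at 14.3 and 13.1 FPKM in the wild type. The groups did not overlap, and the log2 difference was 0.53 ± 0.07 (SE, limma adjusted p = 0.00263). The last 626 bases of its record lie inside the annotated range of the long noncoding RNA Gm34921, and the sources used here do not give the strand setting of the counting, so reads of the pair may not be separable. Dusp4 (chromosome 8, 34807610 to 34819894) stood at 6.92 and 5.38 FPKM in the mutant and at 5.01 and 4.29 FPKM in the wild type. These did not overlap, yet the log2 difference of 0.33 ± 0.13 (SE) had an adjusted p of 0.104. With 1 library left out, and the spread again taken from the other group, it ran between 0.18 without mutant replicate 1 (adjusted p = 0.344) and 0.49 without mutant replicate 2 (adjusted p = 0.0278). Only the last of these passed.

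Over all 10 members, both mutant values lay above both wild-type values for 6, below them for 1 (Etv5), and overlapped for 3. Among all records tested 70.1% had groups that did not overlap, so this count is near the background. The 10 include Etv1, which overlapped, and Spry4, which did not, and neither was among the records tested. Markers of other cells were measured beside these changes. Of the 8 epithelial markers 6 were higher in the mutant and 1 lower, with sums of 1954 and 1851 FPKM against 1595 and 1579 FPKM in the wild type. Mesenchyme markers summed to 70.9 and 134 FPKM in the mutant, against 105 and 144 FPKM in the wild type, and 1 of 8 was higher and 1 lower. Markers of mesothelium summed to 14.5 and 12.6 FPKM in the mutant and to 1.94 and 2.44 FPKM in the wild type, and 1 gene, Msln, carried that difference with 13.1 and 11.2 FPKM in the mutant and 0.851 and 0.694 FPKM in the wild type. Msln passed the filter on low values only through the mutant, where it was high, so it had to differ. Upk3b, the other mesothelium marker tested, did not pass (log2 difference 0.10, adjusted p = 0.651). Of 2 erythroid markers tested 1 was lower in the mutant. No marker of endothelium (4 tested) or smooth muscle (5 tested) passed in the mutant. None of the epithelial, mesenchyme and mesothelium lists had a member at 0, and their part in the members' changes was not tested. Etv5 passed in all 12 alternative settings. Etv4 and Dusp6 lost their calls without the filter on low values (adjusted p = 0.0831 and 0.0599), and these and Spry1 lost theirs with all libraries set to one total FPKM (adjusted p = 0.554, 0.858 and 0.687). There the log2 differences were larger, at 1.46 for Etv4, 0.96 for Dusp6 and 1.41 for Spry1, against a shift of 0.41 in the median of all records, and one microRNA record, Mir762, made up 50.05% of the total of wild-type replicate 1.

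In TRAP against whole lung, Etv5, Etv4, Spry1 and Spry2 were higher and Etv1 and Spry4 lower, so the PEA3 and Sprouty families each held members on both sides. Neither Spreds nor DUSPs passed. That made 6 of 10 members, against 40.7% of the 12320 records tested. Of the members 4 were higher and 2 lower, against 23.6% and 17.1% of records. Etv1 and Spry4 passed the filter on low values only through whole lung, where they were high, so they had to differ, and the counts are a description. The members' median log2 difference was 0.31, against 0.05 for all records. TRAP and whole lung were fitted over both stages, with stage as a term and 1 library per group and stage. The p-values of this fit therefore measure how far the stages disagree on the gap, not the spread of replicates.

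**Figure D3:**
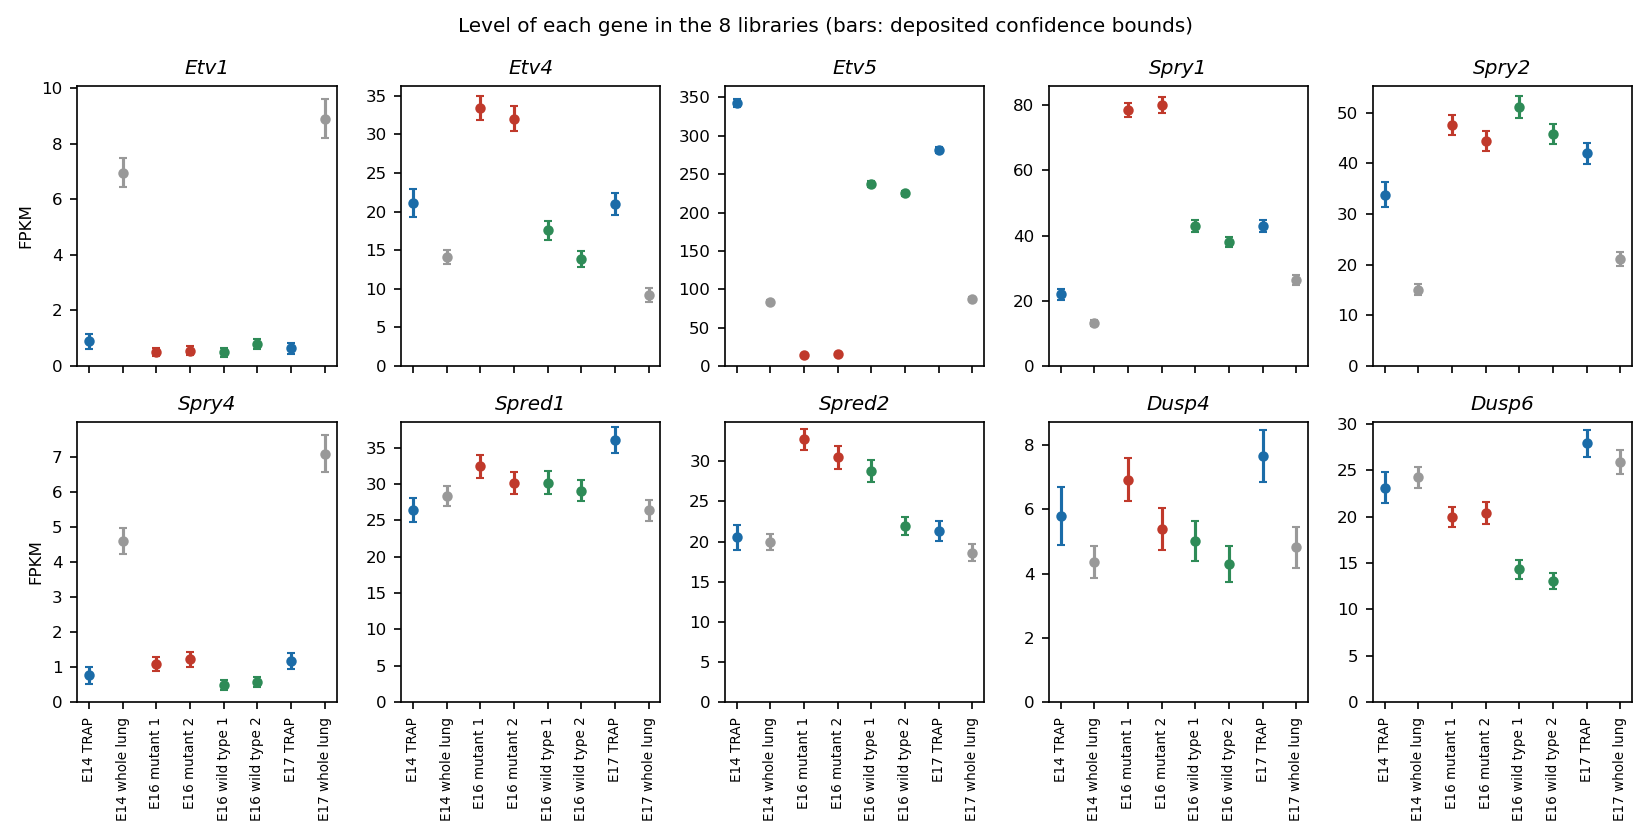
Level in FPKM (y axis, linear, own scale per gene) of each gene in each of the 8 libraries (x axis), with the deposited confidence bounds as bars. Etv5 runs between 13.8 and 343 FPKM, while Etv1 and Spry4 stand above 4 FPKM in the whole lung libraries alone.

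Etv5 had 343 FPKM in TRAP and 83.8 FPKM in whole lung at E14, and 281 FPKM in TRAP and 87.5 FPKM in whole lung at E17. It was the highest member in both TRAP libraries, and in whole lung too. The log2 difference over both stages was 1.84 ± 0.12 (SE, limma adjusted p = 0.000759), beside a median of 1.77 for the epithelial markers. Etv4 had 21.1 FPKM in TRAP and 14.1 FPKM in whole lung at E14, and 21.0 FPKM in TRAP and 9.18 FPKM in whole lung at E17. It was higher in TRAP at both stages, by 0.83 ± 0.17 (SE, log2, adjusted p = 0.0134).

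Etv1 ran the other way, with 0.885 FPKM in TRAP and 6.96 FPKM in whole lung at E14, and 0.638 FPKM in TRAP and 8.90 FPKM in whole lung at E17. Its log2 difference was -2.34 ± 0.20 (SE, limma adjusted p = 0.00135), beside a median of -3.24 for the mesenchyme markers. Etv1 passed the filter on low values only through whole lung, so it had to differ and the p is no evidence of a difference. Etv1 made up 0.243% and 0.211% of the PEA3 sum in TRAP at E14 and E17, against 6.63% and 8.43% in whole lung.

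Spry2 had 33.8 FPKM in TRAP and 15.1 FPKM in whole lung at E14, and 42.0 FPKM in TRAP and 21.2 FPKM in whole lung at E17. It was higher in TRAP by 1.04 ± 0.11 (SE, log2, limma adjusted p = 0.00209). Spry1 had 22.0 FPKM in TRAP and 13.3 FPKM in whole lung at E14, and 43.0 FPKM in TRAP and 26.3 FPKM in whole lung at E17. The gap was 0.69 at each stage, and 0.69 ± 0.10 (SE, log2, limma adjusted p = 0.00587) over both. Spry4 was the Sprouty of the whole lung side, with 0.757 FPKM in TRAP and 4.60 FPKM in whole lung at E14, and 1.17 FPKM in TRAP and 7.09 FPKM in whole lung at E17. Its log2 difference was -1.79 ± 0.18 (SE, limma adjusted p = 0.00196). As with Etv1, the filter on low values was passed only through whole lung, so this p is no evidence of a difference. Spry4 made up 1.34% and 1.35% of the Sprouty sum in TRAP at E14 and E17, against 13.95% and 12.98% in whole lung.

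**Figure D4:**
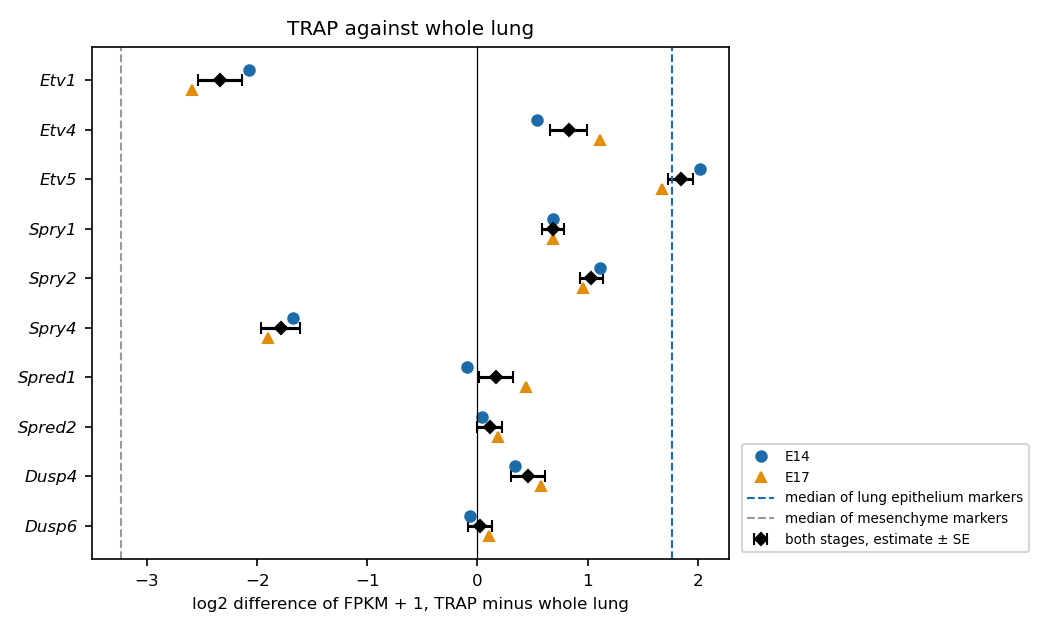
Log2 difference of FPKM + 1 (x axis), TRAP minus whole lung, for each gene (rows). Circles are E14, triangles E17, diamonds the estimate over both stages with its SE, and dashed lines the medians of the epithelial (1.77) and mesenchyme (-3.24) markers. Etv5 lies at the epithelial line, while Etv1 and Spry4 lie below 0.

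None of the Spreds and DUSPs passed this test over both stages. At E17 alone, with the spread of the E16 duplicates, Spred1 was higher in TRAP (0.44, limma adjusted p = 0.00976). Spred1 had 26.4 FPKM in TRAP and 28.3 FPKM in whole lung at E14, and 36.0 FPKM in TRAP and 26.3 FPKM in whole lung at E17 (adjusted p = 0.405 over both stages). Spred2 had 20.6 FPKM in TRAP and 20.0 FPKM in whole lung at E14, and 21.3 FPKM in TRAP and 18.6 FPKM in whole lung at E17 (adjusted p = 0.453). Dusp6 had 23.1 FPKM in TRAP and 24.2 FPKM in whole lung at E14, and 27.9 FPKM in TRAP and 25.9 FPKM in whole lung at E17 (adjusted p = 0.893). Over both stages their log2 differences were 0.17 ± 0.15 for Spred1, 0.11 ± 0.11 for Spred2 and 0.02 ± 0.11 for Dusp6 (SE). Dusp4 had 5.80 FPKM in TRAP and 4.36 FPKM in whole lung at E14, and 7.66 FPKM in TRAP and 4.81 FPKM in whole lung at E17. It was above whole lung at both stages but missed the threshold (log2 difference 0.46 ± 0.15 (SE), adjusted p = 0.0600), and it passed with libraries centred on their medians (adjusted p = 0.0424). Without the stage term only Etv1, Etv5 and Spry4 of the members passed, and without the filter on low values none did, although 5 members then had an unadjusted p under 0.05.

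Between stages there was 1 library per group, so values are given with no replicate check of their own. No member differed 2-fold between E17 and E14, in TRAP or in whole lung, as did 6.37% of records in TRAP and 5.89% in whole lung. In TRAP 7 members were higher at E17 and 3 lower, with a median log2 difference of 0.28. Spry1 came closest, with 43.0 FPKM in E17 TRAP against 22.0 FPKM in E14 TRAP, and 26.3 FPKM in E17 whole lung against 13.3 FPKM in E14 whole lung. That is a log2 difference of 0.94 in both fractions. In whole lung 7 members were higher and 3 lower, with a median of 0.10, and 5 were higher and 5 lower when libraries were rescaled without records under 200 bases. Etv4 had the lowest difference there, -0.57, while its TRAP level was 21.0 FPKM at E17 and 21.1 FPKM at E14. Etv5 differed by -0.28 in TRAP and by 0.06 in whole lung (log2, E17 minus E14). The sign of the stage difference was opposite in TRAP and whole lung for 4 members, Etv1, Etv5, Spred1 and Spred2, and for 25.1% of records. Under that rescaling Etv5 had the same sign in both fractions (-0.33 in TRAP, -0.048 in whole lung) and Dusp6 opposite signs (0.22 in TRAP, -0.014 in whole lung).

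A fit of all 6 groups borrowed its spread from the E16 duplicates, and so assumed that the single libraries vary like those. By that fit Spry1 (adjusted p = 0.00392) and Spred1 (log2 difference 0.44, adjusted p = 0.0161) were higher in E17 TRAP, 2 of 10 members against 34.8% of records (18.8% higher, 16% lower). In whole lung Spry1 (adjusted p = 0.00451), Spry2 (0.46, adjusted p = 0.0272) and Spry4 (0.53, adjusted p = 0.0357) were higher and Etv4 (adjusted p = 0.0473) lower at E17, 4 of 10 members against 32.7% of records (17.8% higher, 15% lower). In TRAP the count is below its background, and in whole lung it is near it. The difference between the stage changes of TRAP and whole lung passed for 0 members and 0.914% of records in the same limma fit, and 1 member, Spred1, had an unadjusted p under 0.05. The gap between TRAP and whole lung had opposite signs at E17 and E14 for Spred1 and Dusp6, and for 16.5% of records.

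In E16 wild-type TRAP the order of levels was Etv5 (231 FPKM), Spry2 (48.4), Spry1 (40.4), Spred1 (29.6), Spred2 (25.4), Etv4 (15.7), Dusp6 (13.7), Dusp4 (4.65), Etv1 (0.635) and Spry4 (0.527). Within that order Spred1 and Spred2, Etv4 and Dusp6, and Etv1 and Spry4 were neighbours whose means lay within the sum of their SDs. In the mutant Spry1 came first (79.2 FPKM), then Spry2 (46.0), Etv4 (32.7), Spred2 (31.6), Spred1 (31.3), Dusp6 (20.2), Etv5 (14.8), Dusp4 (6.15), Spry4 (1.15) and Etv1 (0.535). Etv4, Spred2 and Spred1 were not separable there by their SDs. Etv5 was thus the seventh of the members in the mutant and the first in the wild type. By mean Etv4 was the third in the mutant and the sixth in the wild type, but the SDs do not resolve these places from the neighbours named above.

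The genes around the members in the pathway were counted from lists of other names, beside the 17.4% of all records that were higher and the 14.3% that were lower in the mutant. Of 5 FGF receptors and cofactors, 1 rose and 3 fell in the mutant. Fgfr2, the main receptor for FGF10 on the tips, stood at 41.3 and 37.0 FPKM in the mutant and at 94.4 and 88.9 FPKM in the wild type (log2 difference -1.21, adjusted p = 0.000199). Fgfr4 stood at 3.59 and 4.39 FPKM in the mutant and at 16.97 and 15.8 FPKM in the wild type (-1.80, adjusted p = 0.000177). Fgfr3 was higher, at 46.3 and 43.0 FPKM in the mutant and 22.3 and 20.9 FPKM in the wild type (1.012, adjusted p = 0.000254). The receptor list thus moved in both directions, with a median of -0.49.

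Of 12 other feedback inhibitors, 9 were tested in the mutant, where 5 rose and 2 fell, with a median log2 difference of 0.40. Dusp9, another ERK phosphatase, stood at 68.8 and 71.7 FPKM in the mutant and at 31.8 and 28.8 FPKM in the wild type (1.19, limma adjusted p = 0.000167). Flrt3, a membrane protein that binds FGF receptors and is known from Xenopus to promote their signalling, was in this list although it is no inhibitor, and without it 4 of 8 rose and 2 fell. It stood at 13.1 and 11.2 FPKM in the mutant and at 2.60 and 2.41 FPKM in the wild type (1.90, limma adjusted p = 0.000150). Of 22 tested genes of the RAS-ERK cascade 8 rose and 1 fell, with a median of 0.15. Rps6ka3, a kinase that ERK activates, stood at 14.5 and 15.5 FPKM in the mutant and at 10.05 and 9.32 FPKM in the wild type (0.58, limma adjusted p = 0.00244).

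Of 12 tested genes among other ERK-responsive genes, 7 rose and 1 fell in the mutant, with a median of 0.47. At least 1 of the 7 that rose was under 1 FPKM in both wild-type libraries. It passed the filter on low values only through the mutant, so it had to differ. Junb, an immediate early gene, stood at 19.2 and 15.7 FPKM in the mutant and at 6.03 and 5.76 FPKM in the wild type (1.41, limma adjusted p = 0.000415). Mycn, a growth-promoting factor of the tips, was the one that fell, at 19.2 and 14.4 FPKM in the mutant and 44.9 and 46.3 FPKM in the wild type (-1.40, limma adjusted p = 0.000951).

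In TRAP against whole lung the same lists had genes on both sides, beside 23.6% of all records higher and 17.1% lower. The other feedback inhibitors had 4 higher and 4 lower of 11 tested, among them Dusp9 (log2 difference 1.497) and Il17rd (-1.39), an inhibitor at the receptor. Flrt3, which is no inhibitor, was still among the 11 tested. Il17rd passed the filter on low values only through whole lung, with 0.603 FPKM in TRAP and 3.84 FPKM in whole lung at E14, and 0.376 FPKM in TRAP and 2.13 FPKM in whole lung at E17, so it had to differ. The ERK-responsive genes had 2 higher and 6 lower of 11, with Mycn at 1.48 and Elk3, an ETS factor, at -1.68. The RAS-ERK cascade had 4 higher and 5 lower of 23, and the receptors 2 higher, Fgfr2 (1.47) and Fgfrl1 (1.16), and 1 lower, Fgfr1 (-0.43), of 5. At least 1 of the 5 lower cascade genes passed the filter on low values only through whole lung, so it had to differ too. All genes given here with a log2 difference had limma adjusted p-values under 0.05.

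Profiles over all 8 libraries were set against those of Etv5 and Etv4 among the 8546 records averaging at least 5 FPKM, by the root mean square difference of log2 values centred per record. The records nearest Etv5 were Irx2 (0.24), Tgfb2 (0.40), Irx3 (0.41), Fam89a (0.41) and Irx1 (0.41), so 3 of 5 were Iroquois transcription factors. Irx2 had 6.54 and 8.08 FPKM in the mutant and 93.2 and 97.1 FPKM in the wild type. Those nearest Etv4 were Pak1 (0.21), Eno3 (0.21), Plscr1 (0.22), Pik3r3 (0.24) and Palm3 (0.24). Pak1, a kinase, had 19.8 and 17.04 FPKM in the mutant and 11.3 and 10.7 FPKM in the wild type. The profiles closest to Etv5 were therefore low in the mutant, and those closest to Etv4 high in it, which follows from how they were picked.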

How the data were processed

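Per the file headers, the authors deposited FPKM and confidence bounds for 24487 records in 1 table per library. The submitters' processing notes name TopHat2 2.0.14, Bowtie2 2.2.3, Cufflinks 2.2.1, Cuffnorm and build mm10. The sources used here do not state how Cuffnorm scaled libraries. FPKM were taken as deposited, although totals ran between 659798 and 1631259. Fragments were inferred from each value and its upper bound, read as 2 standard errors away.

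Values were tested as log2(FPKM + 1) with limma 3.58.1 (R 4.3.3), which understates changes of low genes. Records averaging at least 1 FPKM were kept. All records were fitted, with an eBayes trend, two-sided p and Benjamini-Hochberg adjustment at 0.05. The mutant fit held the 4 E16 libraries (2 residual degrees of freedom). The TRAP fit held the 4 E14 and E17 libraries with stage as a term (1 residual degree of freedom). The scripts were tested on simulated data. Alternatives were other pseudocounts, filters and scalings, limma-voom on inferred fragments, other designs, and leaving out each replicate. Named genes were the members, Sox9, up to 4 genes per pathway list with the smallest p per comparison, and the 5 profiles nearest Etv5 and Etv4. Members and lists were chosen with earlier results of these data known. One gene of these lists is not reported here by name.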

Additional observations from a re-analysis of the deposited data

Results flagged for a closer look

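For 5 members the change between stages, or the gap between TRAP and whole lung, pointed in opposite directions in the groups compared. The difference of the stage changes, TRAP minus whole lung (each E17 minus E14), was tested in the fit of all 6 groups with the spread of the E16 duplicates. It was 0.54 on the log2 scale for Spred1, which had 0.44 in TRAP and -0.10 in whole lung (unadjusted p = 0.00550, limma adjusted p = 0.114). It was -0.52 for Etv1 (limma adjusted p = 0.295), -0.35 for Etv5 (0.265), 0.17 for Dusp6 (0.492) and 0.14 for Spred2 (0.788). No member passed, against 0.914% of records, and 1 member (Spred1) had an unadjusted p under 0.05. The stage change had opposite signs in TRAP and whole lung for 4 members (25.1% of records), and the gap between TRAP and whole lung had opposite signs at E17 and E14 for 2 members, Spred1 and Dusp6 (16.5% of records).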

How the results depend on the processing

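In the mutant comparison 4 members passed. The count was 2 with no filter on low values (Etv5 and Spry1) and 1 (Etv5) with libraries rescaled to a common total. That scaling was chosen after seeing the data and moved the median of all records by 0.41. It was 4 to 5 without 1 replicate, and 4 to 5 under the other scalings, filters, pseudocount and limma-voom. Of all records 3755 passed (2063 higher, 1692 lower). The number was 1187 with no filter, 225 at a common total and 1888 to 3436 without 1 replicate, with 2208 lacking wild-type replicate 1 and 1888 lacking wild-type replicate 2. The split was 1749 higher and 2336 lower with libraries centred on their median, and 2709 higher and 1260 lower when rescaled without records under 200 bases. In the TRAP comparison 6 members and 5015 records passed (2910 higher, 2105 lower). With no filter 0 members and 0 records passed in limma, against 5 members and 5746 records at an unadjusted p under 0.05. With no stage term 3 members and 574 records passed. The split was 2455 higher and 2577 lower when rescaled without short records, and 1743 higher and 2346 lower by limma-voom, which called 6 members. For the stage change the fit with the spread of the E16 duplicates called 2 members in TRAP and 4 in whole lung, where 0 reached 2-fold. The causes were not tested.

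In the mutant and TRAP comparisons the direction turned for 4 members, none of which had passed. The mutant difference of Spry2 was 0.38 at a common total and between -0.15 and 0.0077 without 1 replicate, above 0 only without wild-type replicate 1. In TRAP against whole lung Dusp6 was at -0.069 rescaled without short records, -0.12 by limma-voom and -0.064 at E14 alone, Spred2 at -0.014 by limma-voom, and Spred1 at -0.10 at E14 alone, while at E17 alone Spred1 passed at 0.44. The stage differences of Etv5 and Dusp6 in whole lung were -0.048 and -0.014 rescaled without short records. The difference in the Etv5-to-Etv4 ratio ran between -5.02 and -4.78 without 1 replicate. With a filter of 5 FPKM Etv1 and Spry4 gave no value.

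With the replicate number as a block 6 members passed, adding Dusp4 (adjusted p = 0.0394) and Spred2 (0.0402), and 3503 records. The log2 ratio differed by -4.90 within each pair. Same-numbered libraries did not deviate together (correlation 0.0072 over 11872 records). The labels do not say what the numbers mark, and with so few libraries this check cannot exclude a pairing.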
